A study of Mus musculus with 36 samples.

Results

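Germline, piRNA and meiosis genes form a set of 42 mouse genes that act in germ cells, chosen by name from 54281 genes measured by RNA-seq in *Tet1* knockout (KO) and wild type (WT) embryonic stem cells (ESCs) turning into neural progenitors. The KO lines KO1 and KO15 and the WT lines WT7 and WT34 were littermate-derived male ESC lines of mixed B6 and 129S6 background, and KO lines carried the Tet1tm1Koh allele. ESCs had been grown with serum and LIF on fibroblast feeders (day 0) and were then moved to serum-free N2B27 medium with bFGF for the first 3 days, which leads WT cells towards anterior neural progenitors by day 5. KO and WT had 2 libraries each on days 0, 1, 2 and 4, 4 libraries on day 3 and 3 libraries on day 5, from 2 differentiation experiments of the same lines. Experiment 3 held clones CM59 and CM69 (MUT), which were edited in WT7 to carry a catalytically inactive TET1, with each clone sampled on days 3 and 5 beside a line labelled WT70 that had 1 library on either day. All groups shared the same medium and schedule. Replicates within a genotype came from only 2 lines, so adjusted p-values measure the spread between libraries of these lines.

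Germ cells keep transposons silent with PIWI proteins, which bind piRNAs, short RNAs that are made and amplified in perinuclear granules by helicases, nucleases and Tudor domain proteins. Meiosis needs a further set of proteins that build the chromosome axis and synaptonemal complex, replace cohesin subunits and make and repair DNA breaks. In somatic lineages many of these genes are kept off by CpG methylation of their promoters and by E2F6 and MGA with a variant Polycomb complex (PRC1.6), and mouse ESCs grown in serum transcribe some of them at low levels. TET1 is a dioxygenase that oxidizes 5-methylcytosine. DNA methylation was not analysed here.

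Several sequence features were more frequent in the promoters of these genes than among all promoters. Many genes of this class are kept off by E2F6 and MGA, as described above, so this is not independent of the choice of genes. RefSeq windows on GRCm38.p6, from 250 bases before to 50 bases after the start, were available for 37 of the 42 genes (48 windows, some of them overlapping), and not for *Tdrd6*, *Spo11*, *Piwil2*, *Tex15* and *Ythdc2*. The E-box CACGTG, the letters bound by MGA and its partner MAX among other factors, stood in 20 windows of 16 genes (41.7%), against 7.15% of all 32851 windows and 9.23% of the windows of tested genes. The E2F-type letters TTCCCGC stood in 27.1% of the windows against 4.6% of all and 7.36% of those of tested genes, and the shorter core TCGCGC in 22.9% against 9.10% and 15.2%. An E-box together with either E2F-type motif was found in 25.0% of the windows, against 1.34% of all windows and 2.24% of those of tested genes. The longer motif GCGCGAAA, which contains the core on its other strand, was found in none of the 48 windows and in 0.323% of all. Both strands were searched, and a match describes these letters only. The median window held 20 CpGs, against 7 over all windows and 18 over those of tested genes.

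The 150 bases before the start are shown for genes whose day 3 level was higher in KO cells (*Ddx4*, *Tdrd1*, *Stk31*, *Sycp1*, *Tdrd12*, *Rpl10l*, *Tex14*) and for a pair that fell in WT cells without passing the test between genotypes (*Hormad1*, *Sycp3*), each from 5′ to 3′ on the strand of the gene, with E-boxes and E2F-type motifs on either strand in capitals. *Ddx4* lies at chr13:112652311-112652460 (minus strand), *Tdrd1* at chr19:56826059-56826208 (plus strand), *Stk31* at chr6:49395389-49395538 (plus strand), *Sycp1* at chr3:102936101-102936250 (minus strand), *Tdrd12* at chr7:35537745-35537894 (minus strand), *Rpl10l* at chr12:66284402-66284551 (minus strand), *Tex14* at chr11:87404915-87405064 (plus strand), *Hormad1* at chr3:95559527-95559676 (plus strand) and *Sycp3* at chr10:88459437-88459586 (plus strand).
Ddx4: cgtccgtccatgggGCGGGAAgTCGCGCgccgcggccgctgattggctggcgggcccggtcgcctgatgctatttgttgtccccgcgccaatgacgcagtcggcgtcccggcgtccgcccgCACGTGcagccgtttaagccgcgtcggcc
Tdrd1: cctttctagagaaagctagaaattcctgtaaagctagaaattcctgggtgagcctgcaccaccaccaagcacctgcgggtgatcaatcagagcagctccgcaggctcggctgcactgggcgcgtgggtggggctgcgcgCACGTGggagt
Stk31: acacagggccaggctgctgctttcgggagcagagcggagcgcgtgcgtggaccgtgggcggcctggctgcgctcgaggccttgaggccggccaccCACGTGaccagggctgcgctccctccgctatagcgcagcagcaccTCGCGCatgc
Sycp1: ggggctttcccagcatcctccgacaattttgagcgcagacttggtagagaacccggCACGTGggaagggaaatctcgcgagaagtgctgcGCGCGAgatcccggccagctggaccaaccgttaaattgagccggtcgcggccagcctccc
Tdrd12: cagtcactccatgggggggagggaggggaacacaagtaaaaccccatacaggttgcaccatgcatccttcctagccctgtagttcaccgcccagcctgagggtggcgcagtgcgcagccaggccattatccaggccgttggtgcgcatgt
Rpl10l: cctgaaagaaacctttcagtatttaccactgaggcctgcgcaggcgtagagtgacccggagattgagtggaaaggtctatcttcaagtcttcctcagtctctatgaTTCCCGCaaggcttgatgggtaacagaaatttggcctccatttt
Tex14: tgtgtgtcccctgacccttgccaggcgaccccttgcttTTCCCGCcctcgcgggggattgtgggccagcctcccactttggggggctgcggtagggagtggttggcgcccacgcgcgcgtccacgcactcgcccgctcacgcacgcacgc
Hormad1: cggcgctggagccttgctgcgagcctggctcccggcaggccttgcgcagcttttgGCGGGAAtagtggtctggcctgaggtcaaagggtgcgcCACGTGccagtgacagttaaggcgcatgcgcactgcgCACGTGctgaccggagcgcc
Sycp3: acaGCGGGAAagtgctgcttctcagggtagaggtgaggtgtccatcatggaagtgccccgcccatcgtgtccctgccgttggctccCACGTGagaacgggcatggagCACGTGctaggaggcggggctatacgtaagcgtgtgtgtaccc
*Ddx4* holds an E-box, the letters TTCCCGC and the core TCGCGC, while *Stk31* and *Sycp1* hold an E-box and the core only. *Hormad1* and *Sycp3* hold 2 E-boxes and TTCCCGC, and *Tdrd1* holds an E-box near its start. *Rpl10l* and *Tex14* hold an E2F-type motif alone, and *Tdrd12*, whose window has 9 CpGs against 38 in that of *Ddx4*, holds none. Among genes higher in KO cells on day 3, 50% of 16 windows held an E-box, against 37.9% of the 29 windows of the other tested genes of the set. By gene, the E-box stood in 6 of 12 against 9 of 22. The core stood in 31.25% against 17.2% of these windows, TTCCCGC in 25.0% against 31.0%, and an E-box with either E2F-type motif in 25.0% against 24.1%. These differences were not tested.

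The libraries held between 10139521 and 26307363 counts, and 39 of the 42 genes passed the filter on low counts. *Tdrd9*, a helicase of the piRNA pathway, *Asz1*, a mitochondrial scaffold of the same pathway, and *Tex101*, a surface protein of spermatogenic cells, did not pass it. *Asz1* had 0 counts over the 4 WT and the 4 KO libraries of day 3, and *Tex101* had 2 counts in each genotype. *Tet1* itself ran between 1308 and 1432 counts per 1000000 counts of a library (CPM) in WT and between 28.9 and 33.3 CPM in KO libraries on day 0, and between 230 and 255 CPM in WT and 57.8 and 72.7 CPM in KO libraries on day 3, so that KO and WT libraries matched their labels, while the change of the MUT clones cannot be checked from counts. The samples are ESCs and cells differentiated from them. The 11 genes of primordial germ cell specification summed to between 890 and 964 CPM in WT libraries on day 3. None of the 11 had 0 counts over these libraries. *Pou5f1* was retained at 705 CPM, while *Nanos3* had 4 counts and *Prdm14* 1 count over the 4 WT libraries. Other genes of the list are not given here, and whether some cells were germ cells was not tested.

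In WT ESCs on day 0 the set was led by a few genes when levels were compared per transcript length, in TPM (length-corrected transcript shares, n = 2). *Tdrd12*, a Tudor domain helicase needed for secondary piRNA production, came first at 53.9 ± 4.80 TPM (SD). *Syce2*, a central element protein of the synaptonemal complex, followed at 42.8 ± 2.73 TPM, and *Hsf2bp*, which brings BRCA2 to meiotic breaks, at 32.8 ± 8.53 TPM. *Stag3*, a meiotic cohesin subunit, stood at 25.9 ± 2.14 TPM. The intervals of *Syce2* and *Hsf2bp* and those of *Hsf2bp* and *Stag3* overlapped, whereas *Tdrd12* lay above *Syce2* in both libraries. The next 6 genes were *Tdrd5*, *Tex14*, *Rpl10l*, *Zcwpw1*, *Ddx4* and *Sycp3*, between 10.4 ± 7.19 TPM for *Tdrd5* and 7.21 ± 0.280 TPM for *Sycp3*, and the spread of *Tdrd5* covered the other five.

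By day 3 most of the set had fallen in WT cells. Of the 39 genes tested, 28 were lower and 2 higher on day 3 than on day 0 at an adjusted p below 0.05 and a log2 fold change beyond 1, where 9.62% of all tested genes were lower and 12.9% higher. The median log2 fold change was -2.54 over the set and 0.04 over all tested genes. In 28 of the 39 (71.8%) every day 3 library lay below every day 0 library, against 27.9% of all tested genes. Bulk RNA-seq cannot tell fewer cells that transcribe a gene from less RNA in each cell. Feeder fibroblast markers fell as well (6 of 8 lower, and 1 higher), from a summed 104 to 110 CPM on day 0 to 49.2 to 52.5 CPM on day 3, as did all 12 naive pluripotency genes, and their part in the fall was not tested.

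Of the 10 genes highest on day 0, 9 fell and *Tdrd5* did not pass. *Tdrd12* was at 98.2 and 95.1 CPM on day 0 and at 4.02, 2.37, 2.63 and 2.33 CPM on day 3, a log2 fold change of -4.99 (SE 0.19, adjusted p = 7.15e-17). *Hsf2bp* went from 57.9 and 55.4 CPM to 2.36, 1.87, 1.28 and 1.59 CPM (-4.94, SE 0.19, adjusted p = 1.41e-16). *Tex14*, which keeps intercellular bridges between germ cells open, went from 46.6 and 45.8 CPM to 0.555, 0.647, 1.20 and 0.961 CPM (-5.95, SE 0.21, adjusted p = 2.28e-17). In these 3 genes the highest day 3 library was far below the lowest day 0 library. *Rpl10l*, a testis retrogene of a ribosomal protein, fell from 14.7 and 17.5 CPM to 0.139, 0.144, 0.45 and 0.222 CPM (-6.32, SE 0.40). *Ddx4*, the germ granule helicase also called VASA, fell from 36.1 and 49.6 CPM to 6.04, 3.67, 7.88 and 7.43 CPM (-3.11, SE 0.22). Both groups stayed apart in each of these genes, and more RNA was left of *Ddx4* than of *Rpl10l* as a share of the day 0 level.

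Meiotic cohesin and synaptonemal complex genes fell to different extents. *Stag3* dropped from 63.4 and 74.8 CPM to 9.23, 10.4, 11.5 and 12.9 CPM (-2.75, SE 0.18), and *Zcwpw1*, a histone methylation reader at recombination sites, from 20.1 and 24.6 CPM to 6.38, 5.54, 7.80 and 7.31 CPM (-1.81, SE 0.18). *Syce2* kept more of its RNA, at 51.8 and 52.9 CPM on day 0 and 25.3, 19.4, 22.7 and 24.0 CPM on day 3 (-1.15, SE 0.11). *Sycp3*, an axial element protein, went from 12.6 and 11.9 CPM to 6.80, 4.46, 8.78 and 9.42 CPM (-1.12, SE 0.26, adjusted p = 0.000753), and without WT day 3 replicate 2 its change was -0.97 and no longer past the threshold. None of these 4 genes overlapped between days. All 5 axis and cohesin genes passed, with *Hormad1* at -6.41 and *Smc1b* at -3.90, and 5 of 6 synaptonemal complex genes did, with *Sycp1*, the transverse filament protein, at -5.88. *Hormad1* shares 22.9% of its 50-base sequences with other genes and *Sycp1* 5.47%, so their counts are less certain. In all, 15 of the 42 genes overlap a gene on the opposite strand (*Piwil1*, *Piwil4*, *Tdrd5*, *Tdrd9*, *Tdrkh*, *Stk31*, *Sycp1*, *Sycp3*, *Syce1*, *Syce2*, *Smc1b*, *Hsf2bp*, *Zcwpw1*, *Tex14* and *Brdt*), and whether counting used the strand is not given in the sources used here, so their counts are uncertain too.

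Both germ cell RNA-binding proteins were lower on day 3 (*Dazl*, a translational regulator, at -4.44). In the piRNA pathway 2 of 3 PIWI genes (*Piwil2* at -3.86) and 3 of 6 Tudor domain genes (*Stk31* at -4.61) were lower. So were 3 of 4 other pathway genes (*Mov10l1*, a helicase for piRNA precursors, at -4.70). *Stra8*, the retinoic acid target that opens meiotic entry, had 37 counts on day 0 and 0 on day 3, a level at least 32.1-fold lower. *Fkbp6*, a co-chaperone of the pathway, had 31 counts on day 0 and 2 on day 3, a ratio of 40.4 with a 95% interval from 10.3 to 348 that covers counting error only.

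Not every gene of the set fell. *Tdrkh*, a mitochondrial Tudor domain protein of piRNA trimming, rose from 2.75 and 4.41 CPM on day 0 to 10.2, 10.1, 9.91 and 10.7 CPM on day 3 (1.44, SE 0.19, adjusted p = 7.92e-07) and to a mean of 28.4 CPM on day 5. *Spo11*, which cuts DNA at the start of recombination, had 0 counts in WT ESCs and 20 on day 3, at least 2.56-fold higher. *Ythdc2*, a helicase that works with *Meioc* at meiotic entry, had a mean of 37.8 CPM on day 0 and 37.5 CPM on day 3 (-0.13, SE 0.12, adjusted p = 0.384). *Tdrd5*, another Tudor domain protein of the granules, was at 14.1 and 13.2 CPM on day 0 and at 22.8, 22.1, 25.3 and 24.7 CPM on day 3 (0.74, SE 0.15, not beyond 1), with no overlap. The other genes that did not pass were *Piwil1*, *Tdrd6*, *Pld6*, *Syce3*, *Dmc1*, *Mei1* and *Brdt*, with log2 fold changes from -2.06 (*Syce3*, with a group mean of at most 0.162 CPM on either day) to 0.73 (*Brdt*).

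**Figure D1:**
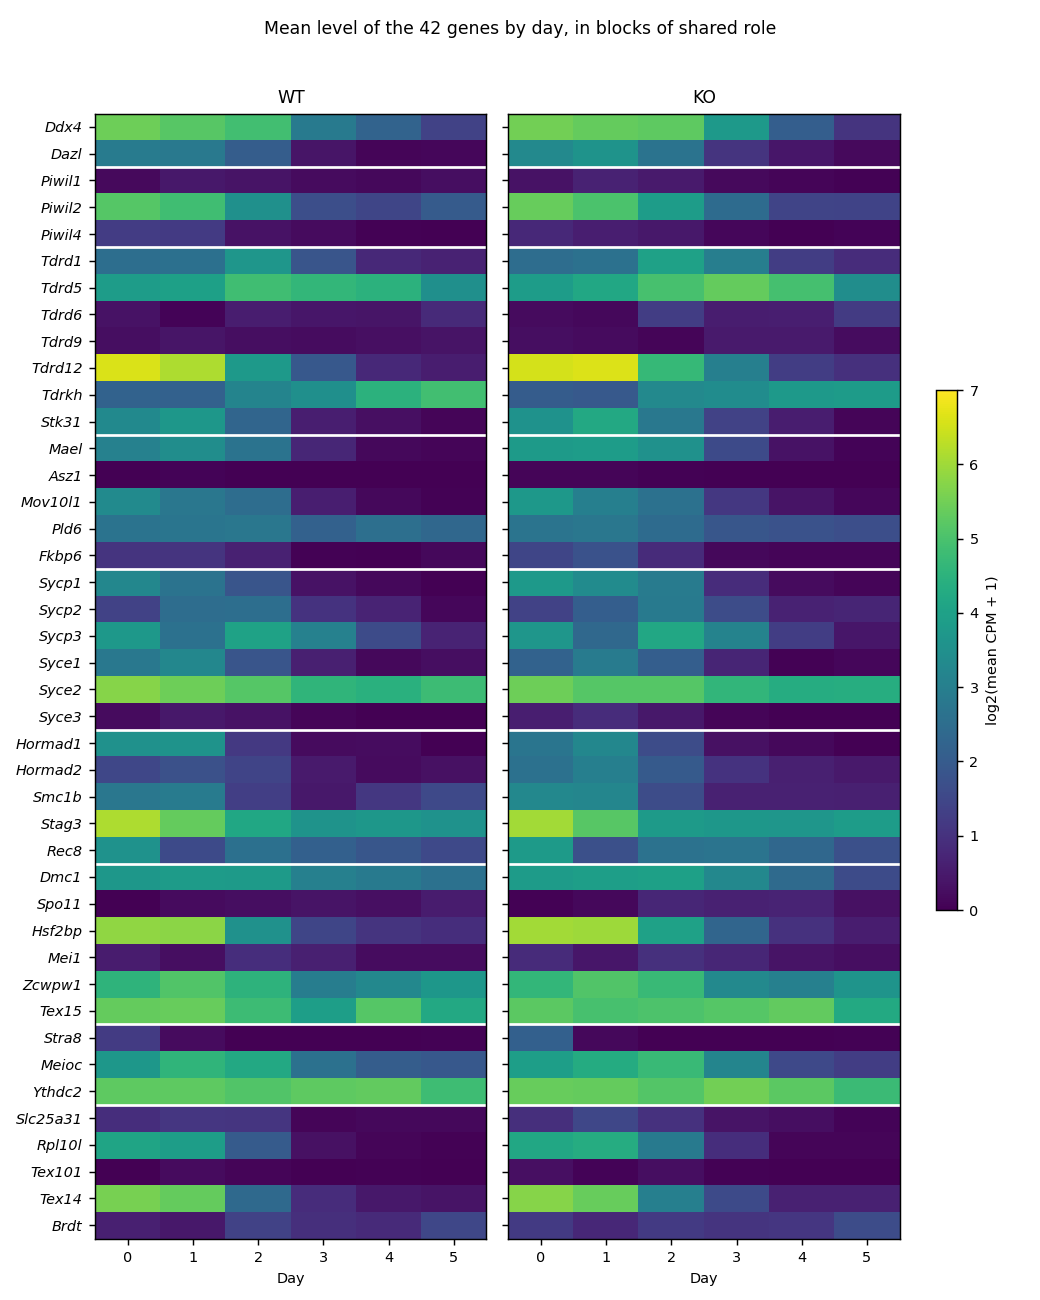
Mean level of the 42 genes in WT and KO cells on days 0 to 5, as log2(mean CPM + 1), with genes in rows grouped by role and days in columns. Most rows darken towards day 5 in both genotypes. Rows that keep signal to day 5 include *Tdrkh*, *Ythdc2*, *Tex15*, *Syce2*, *Stag3*, *Zcwpw1* and *Tdrd5*.

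Within the first 3 days the falls were spread unevenly. Between days 0 and 1, 6 of 39 genes were lower and 0 higher (7.96% and 4.68% of all tested genes), among them *Rec8*, a meiotic cohesin subunit, at -2.60 (SE 0.45) and *Sycp3* at -1.96 (SE 0.34). Day 0 was sampled only in experiment 1 and day 1 only in experiment 2, so this step rests on the experiment term, and the mean of *Tex15* (-1.05) was in fact 39.3 CPM on day 0 and 40.7 CPM on day 1. Without the experiment term 3 genes passed, and 3 passed without WT day 0 replicate 2.

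Between days 1 and 2, within experiment 2, 10 genes were lower and 7 higher (3.61% and 9.22% of all tested genes). *Tex14* (-3.19, SE 0.20), *Hormad1* (-3.14), *Tdrd12* (-2.48, SE 0.19) and *Hsf2bp* (-2.33) were among the lower genes. *Sycp3* (1.6), *Rec8* (1.32) and *Tdrd1* (1.26), a scaffold for PIWI proteins, were among the higher ones, and *Sycp3* and *Rec8* had both fallen on the day before. *Tdrd6* had 1 count on day 1 and 13 on day 2, a ratio of 12.3 with a 95% interval from 1.84 to 521. Without WT day 1 replicate 1 the 17 calls became 11. Between days 2 and 3, 21 genes were lower and 0 higher (2.08% and 2.6% of all tested genes), with a median of -1.62. *Rpl10l* (-3.50), *Dazl* (-3.19), *Hsf2bp* (-2.65), *Tdrd12* (-2.27), *Tdrd1* (-1.99) and *Ddx4* (-1.94) were among them.

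After day 3, 17 genes fell in WT cells by day 5 and 2 rose (7.99% and 7.49% of all tested genes). With cell line as a replicate block 8 genes passed in place of 19, and 9 passed when only the compared libraries were fitted. *Sycp3* fell by a log2 fold change of -3.43 (SE 0.30) and *Sycp2* by -3.13 (SE 0.53). *Mov10l1* was left with 1 count over 3 libraries against 38 counts over 4, a ratio of 22.7 (95% interval 3.83 to 918). *Sycp1* and *Hormad1* had 0 counts on day 5 and were at least 3.38-fold and 2.19-fold lower. *Tdrkh* (1.48) and *Smc1b* (2.28, SE 0.47), a meiotic cohesin subunit with 28 counts on day 3 and 78 on day 5, were the 2 that rose. The mean level was highest on day 0 in 15 of the 39 genes, on day 1 in 13, on day 2 in 6, on day 4 in 1 and on day 5 in 4 in WT cells. These means carry no experiment term. Day 0 came only from experiment 1 and days 1, 2 and 4 only from experiment 2, so day and experiment cannot be told apart between them.

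The comparison of KO with WT cells on the same day asked whether loss of TET1 altered these genes. On day 3, 13 of 39 genes were higher in KO cells and 0 lower, where 2.09% of all tested genes were higher and 1.87% lower. The median log2 fold change was 0.68 over the set, with 34 of 39 above 0, and 0.01 over all tested genes. By role, 2 of 2 RNA-binding proteins, 0 of 3 PIWI genes, 3 of 6 Tudor domain genes, 2 of 4 other piRNA pathway genes, 2 of 6 synaptonemal complex genes, 0 of 5 axis and cohesin genes, 2 of 6 recombination genes, 0 of 3 entry genes and 2 of 4 other spermatogenic genes were higher. In 11 of the 13 genes the KO mean on day 3 was still below the WT mean on day 0, the exceptions being *Tdrd1* and *Sycp2*. These day 3 means pool both experiments, while day 0 was sampled only in experiment 1. Within experiment 1, *Tdrd1* was at 5.56 and 6.35 CPM in KO cells on day 3 and at 4.88 and 4.71 CPM in WT cells on day 0. *Sycp2* was lower on day 3 there, at 0.927 and 0.720 CPM against 1.73 and 1.45 CPM. Levels below are in CPM, with replicates 1 and 2 from experiment 1 and replicates 3 and 4 from experiment 2 in that order.

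*Ddx4* (ENSMUSG00000021758, chromosome 13) was at 8.41, 9.04, 16.1 and 17.1 CPM in KO cells and at 6.04, 3.67, 7.88 and 7.43 CPM in WT cells, a log2 fold change of 1.00 (SE 0.18, adjusted p = 0.000242). *Dazl* (ENSMUSG00000010592, chromosome 17) was at 0.994, 0.982, 0.822 and 1.48 CPM in KO cells and at 0.277, 0.288, 0.375 and 0.332 CPM in WT cells (1.74, SE 0.37, adjusted p = 0.00138). Every KO library lay above every WT library for both genes, by a narrow margin for *Ddx4*. *Ddx4* sat on the fold threshold, and it no longer passed without WT day 3 replicate 2, KO day 3 replicate 3 or KO day 3 replicate 4, with values from 0.89 to 1.13 over the 8 libraries left out in turn.

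*Tdrd1* (ENSMUSG00000025081, chromosome 19) was at 5.56, 6.35, 7.28 and 8.95 CPM in KO cells and at 2.36, 2.09, 2.55 and 3.40 CPM in WT cells (1.42, SE 0.22, adjusted p = 4.4e-05). *Tdrd12* (ENSMUSG00000030491, chromosome 7) was at 7.15, 8.38, 5.64 and 7.05 CPM in KO cells and at 4.02, 2.37, 2.63 and 2.33 CPM in WT cells (1.33, SE 0.16, adjusted p = 1.84e-06). *Stk31* (ENSMUSG00000023403, chromosome 6), a Tudor domain protein with a kinase-like domain, was at 1.06, 1.51, 1.76 and 2.07 CPM in KO cells and at 0.416, 0.216, 0.750 and 0.628 CPM in WT cells (1.68, SE 0.36, adjusted p = 0.00164). The groups did not overlap in any of these 3 Tudor domain genes, and each kept its call in all 8 fits without 1 library.

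*Mael* (ENSMUSG00000040629, chromosome 1), the Maelstrom protein of transposon silencing, was at 0.994, 1.05, 2.41 and 3.46 CPM in KO cells and at 0.832, 0.216, 0.825 and 0.887 CPM in WT cells (1.45, SE 0.33, adjusted p = 0.00275). *Mov10l1* (ENSMUSG00000015365, chromosome 15) was at 0.994, 0.786, 0.939 and 2.03 CPM in KO cells and at 0.208, 0.288, 0.750 and 0.776 CPM in WT cells (1.25, SE 0.33, adjusted p = 0.00972). The groups just failed to overlap in both genes. KO day 3 replicate 4 was the highest library in both, and without it *Mov10l1* stood at 0.97 and no longer passed.

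*Sycp1* (ENSMUSG00000027855, chromosome 3) was at 0.662, 0.262, 0.881 and 1.56 CPM in KO cells and at 0.0694, 0.144, 0.60 and 0.222 CPM in WT cells (1.80, SE 0.47, adjusted p = 0.00982). *Sycp2* (ENSMUSG00000060445, chromosome 2), a partner of *Sycp3* on the axis, was at 0.927, 0.720, 2.47 and 4.31 CPM in KO cells and at 0.347, 0.360, 1.28 and 2.22 CPM in WT cells (1.05, SE 0.30, adjusted p = 0.0168). Pooled over experiments both genes overlapped between genotypes, while within each experiment both KO libraries lay above both WT libraries. Neither call was firm, since *Sycp1* (1.47 to 2.32) no longer passed without KO day 3 replicate 4 or WT day 3 replicate 4, and *Sycp2* (0.88 to 1.33) no longer passed without KO day 3 replicate 1, KO day 3 replicate 4 or WT day 3 replicate 3.

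*Hsf2bp* (ENSMUSG00000002076, chromosome 17) was at 3.11, 4.52, 4.52 and 3.42 CPM in KO cells and at 2.36, 1.87, 1.28 and 1.59 CPM in WT cells (1.14, SE 0.18, adjusted p = 3.65e-05), with no overlap. *Tex15* (ENSMUSG00000009628, chromosome 8), needed for meiotic recombination and for piRNA-guided DNA methylation, was at 17.9, 17.6, 49.0 and 53.4 CPM in KO cells and at 6.31, 6.83, 19.9 and 23.4 CPM in WT cells (1.29, SE 0.20, adjusted p = 4.75e-05). *Tex15* was higher in experiment 2 than in experiment 1 in both genotypes, and KO exceeded WT within each.

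*Rpl10l* (ENSMUSG00000060499, chromosome 12) was at 0.927, 0.851, 0.704 and 1.10 CPM in KO cells and at 0.139, 0.144, 0.45 and 0.222 CPM in WT cells (1.94, SE 0.38, adjusted p = 0.000676), and 7.60% of its 50-base sequences are shared with another gene. *Tex14* (ENSMUSG00000010342, chromosome 11) was at 1.72, 2.03, 2.23 and 1.94 CPM in KO cells and at 0.555, 0.647, 1.20 and 0.961 CPM in WT cells (1.23, SE 0.20, adjusted p = 5.69e-05). Neither gene overlapped between genotypes.

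**Figure D2:**
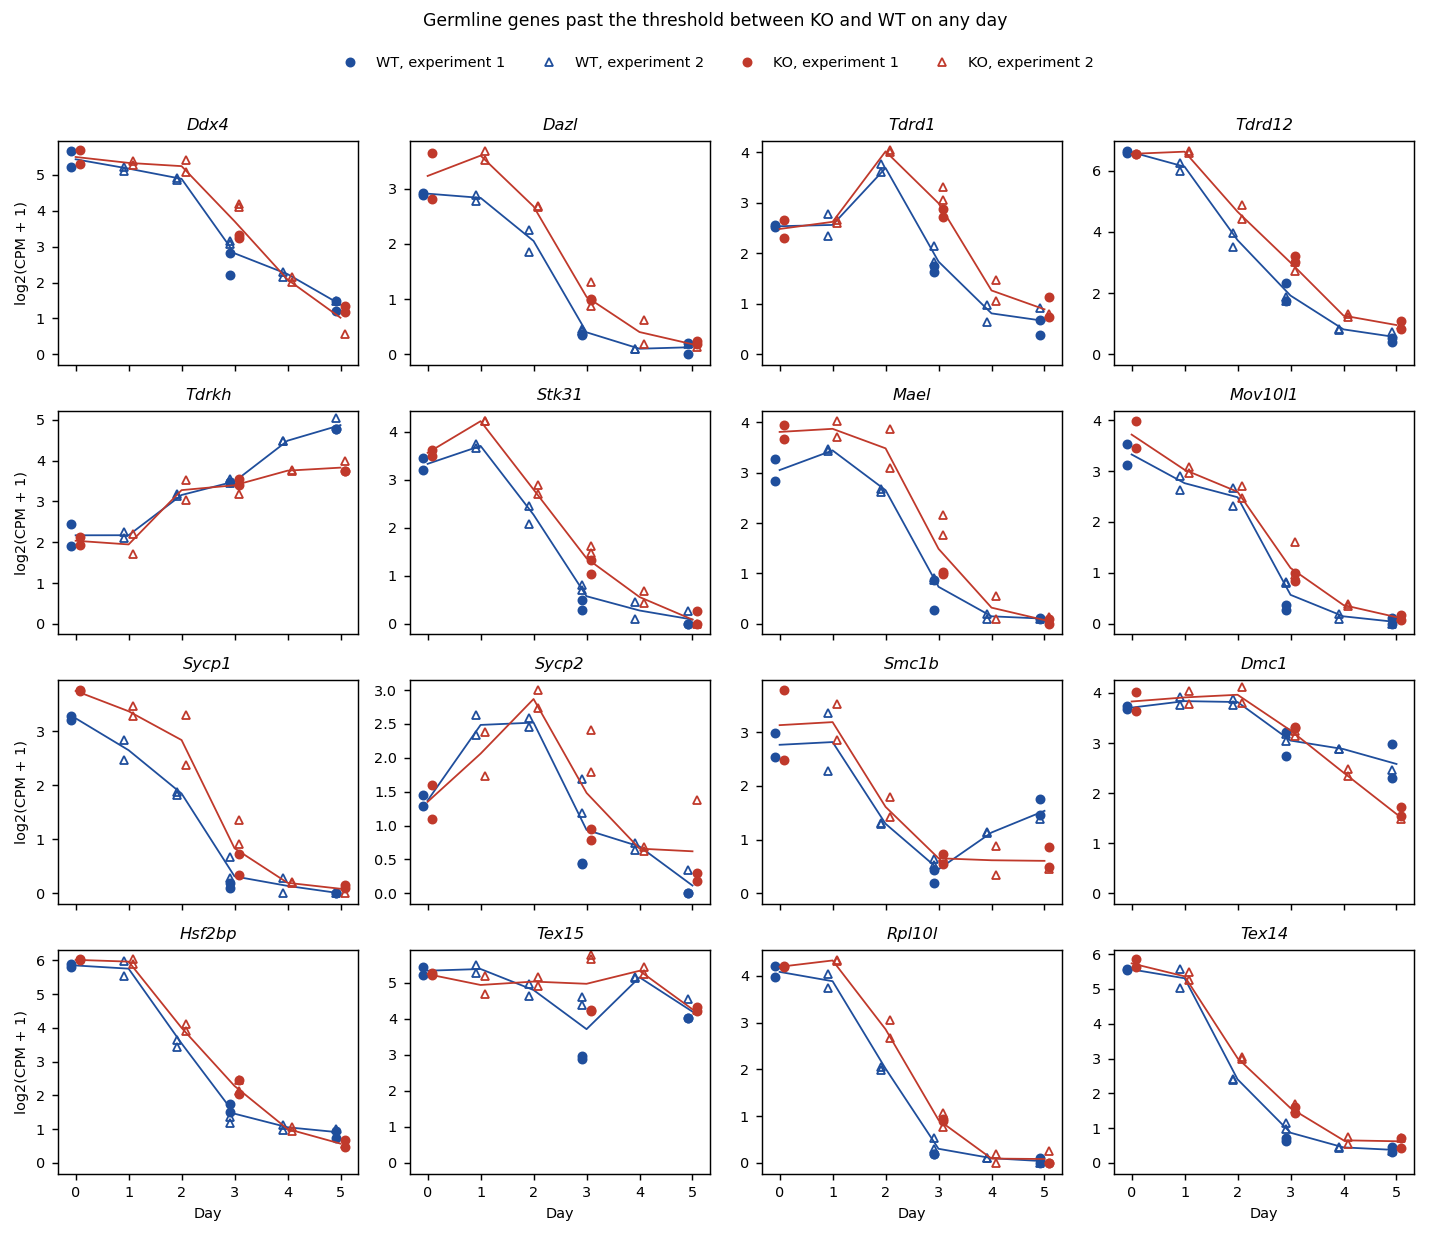
Level of the 16 genes that passed the test between KO and WT on any day, as log2(CPM + 1) by day, with a point for each library (filled circles for experiment 1, open triangles for experiment 2) and lines through the group means. The KO line lies above the WT line on day 3 in the panels of the 13 genes higher on that day, and on day 5 it lies below it for *Tdrkh*, *Smc1b* and *Dmc1*.

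The 2 experiments could be read apart on day 3. In 20 of 39 genes (51.3%) both KO libraries exceeded both WT libraries in experiment 1 and again in experiment 2, where 14.8% of all tested genes did so, and all 13 genes that passed were among them. Over all 8 libraries at once, every KO library lay above every WT library in 15 of 39 genes (38.5%), against 8.47% of all tested genes, and 10 of the 13 that passed were among these. Fitted alone, experiment 1 gave 9 genes and experiment 2 gave 8, and when the libraries of a line were summed first 12 passed. Of the 13 genes, *Ddx4*, *Mael*, *Sycp1*, *Sycp2* and *Hsf2bp* did not pass in experiment 1 alone. In experiment 2 alone *Mov10l1*, *Sycp1*, *Sycp2*, *Rpl10l* and *Tex14* did not pass. The call depended on the scale at these low levels. With limma on log2(TPM + 0.1) 6 genes passed, and on log2(TPM + 1), a pseudocount above most of the levels, none of the 31 genes tested did, with a median of 0.27. At a threshold of 1.5 for the log2 fold change, *Dazl*, *Stk31*, *Sycp1* and *Rpl10l* passed.

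Among the 26 tested genes that did not pass on day 3, several were close to the thresholds. *Tdrd5* was at 43.7, 38.6, 44.4 and 33.3 CPM in KO cells and at 22.8, 22.1, 25.3 and 24.7 CPM in WT cells, with no overlap, and missed on size alone (0.76, SE 0.11, adjusted p = 1.57e-05). *Piwil2* (MILI), which loads the first piRNAs of fetal germ cells, was at 4.24, 3.60, 5.17 and 4.85 CPM in KO cells and at 1.80, 1.51, 2.40 and 3.07 CPM in WT cells (0.98, SE 0.30, adjusted p = 0.0261). *Meioc* had a log2 fold change of 0.65 (adjusted p = 0.0396), and *Hormad2*, a surveillance protein of unsynapsed axes, one of 1.28 (SE 0.45, adjusted p = 0.0569). DESeq2 called 15 genes, adding *Piwil2* and *Hormad2*. Values near 0 were measured for *Sycp3* (0.04), *Syce2* (0.03), *Stag3* (0.12), *Tdrkh* (-0.10) and the strand exchange protein *Dmc1* (0.21), all of which were read deeply enough on day 3 to have a WT mean of 7 CPM or more. *Fkbp6* had 10 counts in KO and 2 in WT cells, a ratio of 4.83 (95% interval 1.03 to 45.4).

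Other genes of the same pathways were listed beside the set. Of 17 tested genes of the piRNA pathway and germ granules 3 were higher in KO cells on day 3 and 0 lower, with a median of 0.66: *Morc1*, an ATPase of transposon silencing (1.61, SE 0.26), *Tex19.1* (1.07, SE 0.25) and *D1Pas1* (1.21, SE 0.31), while *Rnf17* was at 0.66. Of 20 other meiosis genes 1 was higher, *Rad21l*, a meiotic cohesin subunit (1.91, SE 0.58, adjusted p = 0.0252), and 0 lower, with a median of 0.11. None of 14 PRC1.6 and E2F6 genes passed, with 3 at an unadjusted p below 0.05 and log2 fold changes from -0.09 to 0.32. Of 13 DNA methylation genes the 1 that passed was *Tet1* itself, while 8 had an unadjusted p below 0.05. The share of all tested genes below that p was not counted for comparison. The summed level of these 13 genes ran from 3589 to 3980 CPM in KO and from 4333 to 4684 CPM in WT libraries, and its part in the higher germline levels was not tested. In WT cells between days 0 and 3, 11 of the 17 and 9 of the 20 genes were lower (*Morc1* -7.13, *Tex11* -6.49), and 0 of the 14 PRC1.6 genes were lower and 1 was higher (*Yaf2*, 1.6).

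Other cell states differed between the genotypes on day 3. The summed level of 12 naive pluripotency genes ran from 290.0 to 366 CPM in KO and from 128 to 181 CPM in WT libraries, with 3 of 12 genes higher (*Nanog* 2.06, *Dppa5a* 1.44, *Nr0b1* 1.74). That of 10 primitive streak, mesoderm and endoderm genes ran from 452 to 749 CPM in KO and from 25.5 to 56.8 CPM in WT libraries. That of 11 primordial germ cell genes, many of which also act in pluripotent cells, ran from 1028 to 1213 CPM in KO and from 890 to 964 CPM in WT libraries, with *Nanog* and *Tfap2c* (1.06) higher and *Sox2* (-1.65) lower. *Nanos3* had 8 counts in the KO libraries and *Prdm14* had 2. Feeder markers summed to between 32.0 and 38.2 CPM in KO and between 49.2 and 52.5 CPM in WT libraries, with 1 of 8 genes lower. Neural progenitor markers summed to between 287 and 388 CPM in KO and between 363 and 509 CPM in WT libraries, with 1 of 8 genes higher (*Otx1*), 2 lower (*Sox1* and *Pax6*) and a median of -0.91. The part of these states in the higher germline levels was not tested.

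Fewer genes passed on the other days, which also had fewer libraries. Days 0, 1, 2 and 4 had 2 libraries a genotype and day 3 had 4, so the numbers of genes that passed are not directly comparable. No gene passed on day 0, day 1, day 2 or day 4 by the edgeR test. Of all tested genes, 0.866%, 0.634%, 0.616% and 7.68% passed on these days in either direction. In the set, 4, 4, 8 and 7 of the 39 genes had an unadjusted p below 0.05. The share of all tested genes below that p was not counted, so these numbers do not set the genes apart. DESeq2 called 0 genes on days 0, 1 and 4 and 2 on day 2. The median log2 fold change was 0.14 on day 0, 0.16 on day 1, 0.38 on day 2 and 0.00 on day 4, and 27, 26, 33 and 18 of the 39 genes were above 0. By day 4 several genes of the set had few counts in both genotypes, and *Stra8* and *Syce3* had 0 in each. The median of that day does not show whether such genes still differed. The genes that DESeq2 called on day 2 were *Tdrd12* and *Rpl10l*. *Tdrd12* was at 28.7 and 20.6 CPM in KO and 14.7 and 10.3 CPM in WT cells on day 2 (edgeR 0.98, SE 0.19, adjusted p = 0.00469), and it passed at a log2 fold change beyond 1 without KO day 2 replicate 2 or without WT day 2 replicate 1. *Rpl10l* was at 5.37 and 7.27 CPM against 3.16 and 2.94 CPM (1.05, SE 0.34, adjusted p = 0.144). On day 4 the most significant gene was *Tdrkh*, lower in KO cells (-0.78, SE 0.18, adjusted p = 0.00263), and 1 gene passed without KO day 4 replicate 1 or without WT day 4 replicate 1.

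**Figure D3:**
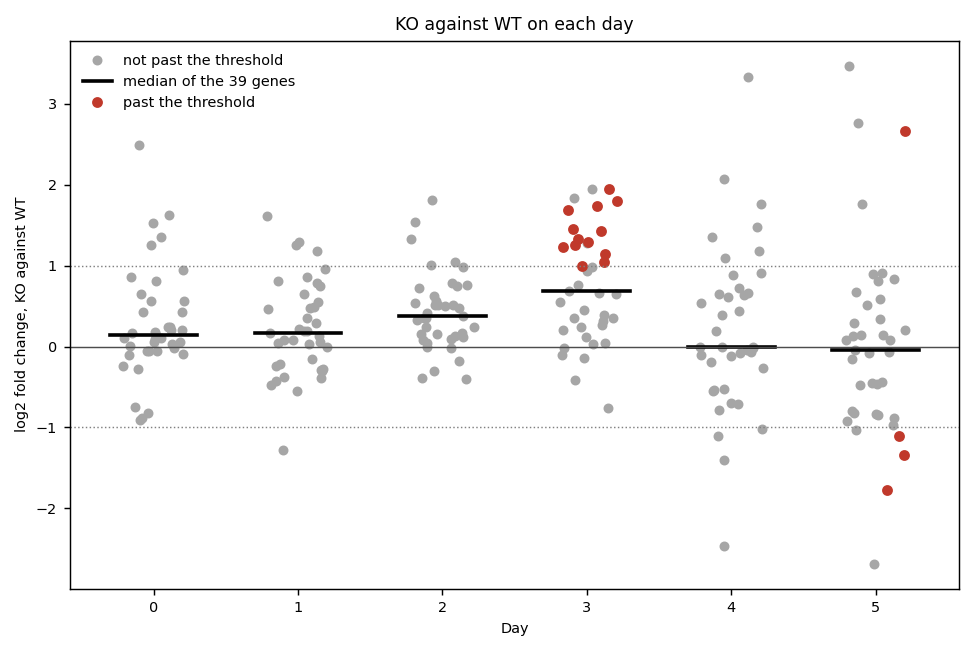
Log2 fold change of KO over WT for the 39 tested genes on each day, with a point for each gene, genes past the threshold in red and a bar at the median. The median is 0.14 on day 0, 0.68 on day 3 and 0.00 on day 4, when several genes had few counts in both genotypes. There are 13 red points on day 3 and 4 on day 5.

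The set fell in KO cells as well. Between days 0 and 3, 26 of 39 genes fell in KO cells and 4 rose (10.4% and 10.8% of all tested genes), with a median of -2.53, and the rising genes were *Tdrd5* (1.51), *Tdrd6* (1.95), *Tdrkh* (1.58) and *Spo11* (42 counts on day 3 against 1 on day 0). *Stra8* had 92 counts on day 0 and 0 on day 3, at least 81.4-fold lower. Between days 3 and 5, 21 genes fell and 1 rose (10.9% and 11.4% of all tested genes), with *Sycp3* at -4.33, *Ddx4* at -3.28, *Tdrd12* at -2.95 and *Tdrd1* at -2.88. The median was -1.82, and -1.77 with genes at 0 counts set to their bounds, against -0.86 and -0.80 between the same days in WT cells.

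Whether the fall between days 0 and 3 differed between genotypes was tested as a difference of the 2 changes. The KO change was higher (less negative, or positive) for 5 genes and lower for 0 (0.907% of all tested genes were higher and 1.66% lower on this measure), with a median of 0.64 and 30 of 39 above 0. *Tdrd12* changed by -4.99 in WT and -3.60 in KO cells, a difference of 1.38 (SE 0.24, adjusted p = 0.000606). *Tex14* changed by -5.95 and -4.90 (difference 1.05, SE 0.26, adjusted p = 0.0128), and *Rpl10l* by -6.32 and -4.48 (1.84, SE 0.49, adjusted p = 0.0230). *Tex15* changed by -2.20 and -0.80 (1.39, SE 0.34, adjusted p = 0.0112). *Tdrd1* took different directions in the 2 genotypes, with -1.09 in WT and 0.39 in KO cells, and the KO value did not pass (adjusted p = 0.300; difference 1.48, SE 0.38, adjusted p = 0.0175). The 5 genes were within 0.18 of equal on the log2 scale on day 0. *Ddx4* (0.95, adjusted p = 0.0452) missed on size, and *Dazl* (1.32, adjusted p = 0.145) and *Sycp1* (1.24, adjusted p = 0.292) on the adjusted p. Day 0 rests on 2 libraries a genotype, and the count was 1 without KO day 0 replicate 1 (*Tdrd12*) and 3 without KO day 0 replicate 2, WT day 0 replicate 2 or WT day 3 replicate 2. None of the 5 differences passed with limma on log2(TPM + 1) or log2(TPM + 0.1), and beyond a log2 difference of 1.5 only that of *Rpl10l* did.

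**Figure D4:**
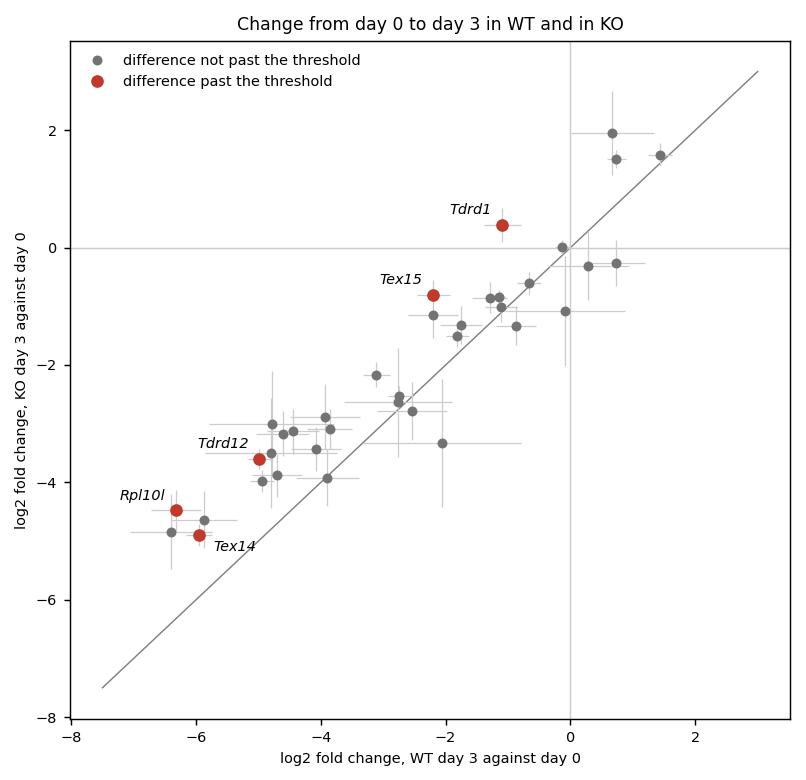
Log2 fold change from day 0 to day 3 in WT cells (horizontal axis) and KO cells (vertical axis), with a point and SE bars for each tested gene with counts in all 4 groups and a line of equal change. Most points lie in the lower left above the line, and the 5 genes with a difference past the threshold are red.

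On day 5, 3 genes were lower in KO cells and 1 was higher (5.73% and 5.99% of all tested genes), and the genes were not those of day 3 except *Sycp2*. *Tdrkh* was at 12.4, 12.4 and 15.0 CPM in KO cells and at 26.4, 26.5 and 32.3 CPM in WT cells (-1.10, SE 0.14, adjusted p = 1.46e-06), with the genotypes well apart. *Dmc1* was at 1.93, 2.31 and 1.78 CPM in KO cells and at 6.89, 3.94 and 4.52 CPM in WT cells (-1.34, SE 0.20, adjusted p = 1.36e-05). *Smc1b* was at 0.399, 0.83 and 0.375 CPM in KO cells and at 1.74, 2.40 and 1.62 CPM in WT cells (-1.78, SE 0.49, adjusted p = 0.00652). Neither of the last genes overlapped between genotypes, and without WT day 5 replicate 3 *Tdrkh* was at -0.99 and no longer passed.

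*Sycp2* was at 0.133, 0.237 and 1.59 CPM in KO cells and at 0, 0 and 0.27 CPM in WT cells (2.66, SE 0.58, adjusted p = 0.000844). Its groups overlapped, and the call was lost without KO day 5 replicate 3, the only KO library of experiment 2 on that day. In all, 7 genes passed on day 5 without KO day 5 replicate 1 and 8 without WT day 5 replicate 3. The streak, mesoderm and endoderm markers summed to between 427 and 494 CPM in KO and between 26.2 and 162 CPM in WT libraries on day 5. The neural progenitor markers summed to between 89.0 and 130 CPM in KO and between 339 and 412 CPM in WT libraries, with 7 of 8 genes lower and a median of -3.59. The part of either set of markers in these differences was not tested. None of the 12 other genes that were higher on day 3 passed on day 5, and 6 of them (*Dazl*, *Stk31*, *Mael*, *Mov10l1*, *Sycp1* and *Rpl10l*) had at most 6 counts in each genotype.

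The MUT clones, which carry a catalytically inactive TET1, were looked at on days 3 and 5. They were compared with WT70, whose single library on either day was given the spread of the replicated groups. No gene of the set passed on day 3 by edgeR (0.148% of all tested genes passed in either direction), the median was 0.22, and DESeq2 called 2. Those were *Ddx4*, at 14.0 and 13 CPM in MUT and 5.39 CPM in WT70 (edgeR 1.33, SE 0.32, adjusted p = 0.112), and *Tdrd1*, at 8.09 and 6.24 CPM in MUT and 2.67 CPM in WT70 (1.42, SE 0.39, adjusted p = 0.245). Both also passed when WT7 and WT34 of the earlier experiments served as controls (1.10 and 1.44), though experiment and genotype cannot be told apart in that fit. Both MUT values exceeded the highest WT day 3 library of the other experiments (7.88 CPM for *Ddx4* and 3.40 CPM for *Tdrd1*). *Dazl* had 26 counts in MUT and 2 in WT70, a ratio of 5.74 (95% interval 1.44 to 49.9), and *Sycp1* 20 and 2 counts, a ratio of 4.42 (1.07 to 39).

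The other 9 genes higher in KO cells did not pass in MUT cells on day 3 either. *Mov10l1* was at 0.634 and 0.636 CPM in MUT and 0.205 CPM in WT70 (28 and 4 counts; 1.59, SE 0.70, adjusted p = 0.754). Both MUT libraries also lay above WT70 for *Stk31* (0.731 and 1.06 against 0.565 CPM), *Mael* (1.32 and 1.06 against 0.770 CPM) and *Sycp2* (1.51 and 1.36 against 0.924 CPM). *Tdrd12* was at 3.02 and 2.16 CPM in MUT and 2.41 CPM in WT70 (0.09, SE 0.31), *Hsf2bp* at 1.80 and 1.15 CPM and 1.95 CPM (-0.42, SE 0.32), and *Tex14* at 0.877 and 0.594 CPM and 0.616 CPM (0.24, SE 0.39). *Tex15* was at 23.2 and 23 CPM in MUT and 15.8 CPM in WT70 (0.55, SE 0.35), again with both clones above. *Rpl10l* had 7 counts in MUT and 3 in WT70. The MUT values lay on both sides of that of WT70 for *Tdrd12* and *Tex14*, and below it for *Hsf2bp*. The difference between the KO and MUT effects was not tested, and KO and MUT were measured in different experiments. On day 3 the streak markers summed to between 75.3 and 86.6 CPM in MUT and 36.5 CPM in WT70, and the naive genes to between 125 and 129 CPM and 107 CPM. On day 5 the test called 1 gene lower in MUT cells and 0 higher (0.611% and 1.26% of all tested genes). It was *Pld6*, the mitochondrial nuclease that cuts piRNA precursors, at 1.80 and 1.64 CPM in MUT and 6.01 CPM in WT70 (-1.80, SE 0.42, adjusted p = 0.0147). The WT70 value is a single library, so this difference has no replicate check on that side and its p rests on the spread of the other groups, and no gene passed without either MUT library.

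**Figure D5:**
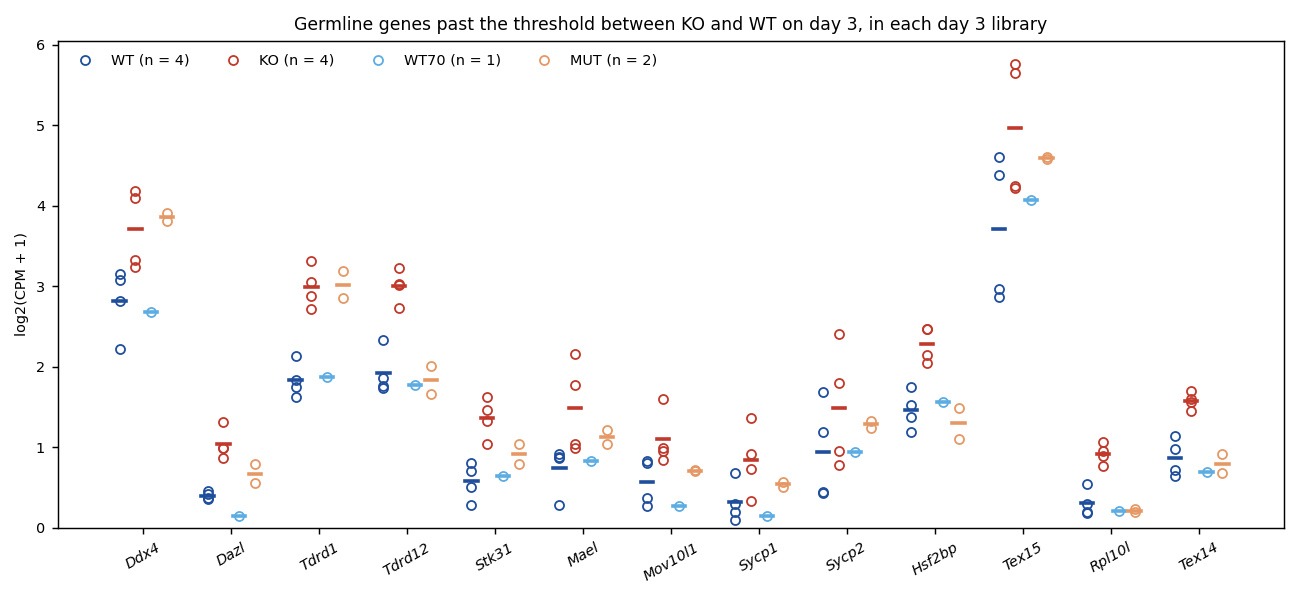
Day 3 level of the 13 genes higher in KO cells, as log2(CPM + 1), with a point for each library of WT (n = 4), KO (n = 4), WT70 (n = 1) and MUT (n = 2) and a bar at the group mean of these log2 values. MUT points lie with the KO points for *Ddx4* and *Tdrd1* and with the WT points for *Tdrd12*, *Hsf2bp*, *Tex14* and *Rpl10l*. WT and KO come from experiments 1 and 2, and MUT and WT70 from experiment 3. Genotype and experiment cannot be told apart between MUT and the KO or WT points.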

How the data were processed

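Poly(A) RNA of 36 libraries was prepared by the authors with a stranded kit and sequenced as single 50-base reads. Per the submitters' processing notes and the study's methods, reads were trimmed with Trim Galore 0.6.4 and quantified with Salmon 0.14.1 on mouse GENCODE M23 transcripts (mm10), and tximport summed transcripts to genes. The deposited expected counts are these unscaled sums, and 73.8% of the values are whole. The deposited TPM values share these estimates and served for levels between genes and in 2 alternatives. Whether counting used the strand is not given in the sources used here, and Salmon divides reads between similar transcripts by estimate. No author comparison was used.

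Expected counts were rounded, and 21601 genes passed the edgeR filter (minimum count 10, minimum total 15). One quasi-likelihood F test model (edgeR 4.0.16, R 4.3.3) held all 36 libraries as 16 group means with a term for experiment 2 and 19 residual degrees of freedom, after a check on simulated data. Adjusted p-values are Benjamini-Hochberg over all tested genes, and a gene passed at an adjusted p below 0.05 with a log2 fold change beyond 1. CPM are counts per 1000000 counts of a library after TMM scaling. Genes at 0 counts in a group were compared with a floor of 3 counts over the group, and intervals are exact at 95%. The alternatives were DESeq2 1.42.0, limma 3.58.1 on log2 TPM, other scaling, filters, controls and terms, and leaving out each library. Every gene that passed between genotypes, and the 10 highest WT genes on day 0, were to be named with values in each library, and up to 4 genes of each further list. The genes and lists were chosen with earlier results of these data known.

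The same cell lines were followed over the days, but the reported model has no term for line, and line as a replicate block was an alternative for the time comparisons. Deviations of the same line from its group means on different days correlated between -0.088 and 0.0658 in WT and between -0.0729 and 0.0654 in KO cells across 21601 genes. WT70 is labelled only as WT. No replicate pair agreed within sampling noise.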

Additional observations from a re-analysis of the deposited data

Results flagged for a closer look

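*Mael* in WT day 3 replicate 2 was far from the other 3 WT libraries, at 0.216 CPM against 0.825 to 0.887 CPM, with a gap of 0.909 of the whole range. *Mov10l1* in KO day 3 replicate 4 was at 2.03 CPM against 0.786 to 0.994 CPM in the other 3 KO libraries, a gap of 0.832 of the range. These were the 2 of 42 groups of 4 libraries (21 genes) that exceeded the critical value of Dixon's test, which chance exceeds in about 1 group in 20.

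The change from day 0 to day 3 differed between KO and WT cells for 5 genes by the test of the difference itself in edgeR. The differences, KO minus WT on the log2 scale, were 1.48 for *Tdrd1*, 1.38 for *Tdrd12*, 1.39 for *Tex15*, 1.84 for *Rpl10l* and 1.05 for *Tex14*. Of these, *Tdrd12* kept its call in each of the 12 fits that left out 1 library. None of the 5 passed in either limma fit on log2 TPM, and at a log2 threshold of 1.5 *Rpl10l* alone did.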

How the results depend on the processing

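Of 232 counts of genes recomputed under an alternative, 183 stayed within 1.5 times the reported count and 49 did not, and of 578 values of single genes 478 kept their call, 100 lost it and 0 reversed. With limma on log2(TPM + 1) the count became 1 on day 1 and 1 on day 2 (reported 0 each), 0 on day 3 (13) and 1 on day 5 (4) between KO and WT, 7 for WT day 2 against day 1 (17), 8 for WT day 3 against day 2 (21), 19 for day 3 against day 0 in WT (30) and 19 in KO cells (30), 4 for WT (19) and 6 for KO cells (22) on day 5 against day 3, 0 for the difference of the falls (5) and 0 for MUT on day 5 (1). With log2(TPM + 0.1) it became 6 on day 3, 1 on day 4, 11 for WT day 2 against day 1, 9 for WT day 5 against day 3, 0 for the difference and 0 for MUT on day 5. Pseudocounts of this size exceed or approach the levels of many of these genes. DESeq2 gave 2 on day 2 and 2 for MUT on day 3. RLE size factors gave 1 on day 2. Without a filter on low counts there were 1 on day 1, 2 on day 2 and 1 for MUT on day 3. A log2 threshold of 1.5 gave 4 on day 3, 2 on day 5 and 1 for the difference. Experiment 2 alone gave 8 on day 3. Without an experiment term 3 genes passed for WT day 1 against day 0 and 3 for the difference. With only the compared libraries 1 passed on day 4 and 9 for WT day 5 against day 3. With WT7 and WT34 as controls MUT had 2 on day 3 and 3 on day 5. With cell line as a replicate block 8 genes passed for WT day 5 against day 3, and no other time comparison moved by over 1.5 times. Between KO and WT no paired analysis was possible because no label ties a KO line to a WT line.

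Leaving out 1 library at a time gave 0 to 0 genes on days 0 and 1, 0 to 1 on days 2 and 4, 9 to 14 on day 3 and 4 to 8 on day 5 between KO and WT. In WT cells it gave 3 to 6 for day 1 against day 0, 11 to 17 for day 2 against day 1, 15 to 21 for day 3 against day 2, 29 to 31 for day 3 against day 0 and 15 to 18 for day 5 against day 3. In KO cells it gave 24 to 30 for day 3 against day 0 and 19 to 23 for day 5 against day 3. It gave 1 to 7 for the difference of the falls, 0 to 0 for MUT on day 3 and 0 to 0 on day 5. A lone library left in a group took the spread of the replicated groups. Depth limits the lowest genes, since a floor of 3 counts is between 0.111 and 0.305 CPM per library, and several germline genes lie near it from day 3 on. Each genotype rests on 2 lines.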
